A study of Mus musculus with 18 samples.

Results

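The transcriptional response of embryonic dorsal root ganglion (eDRG) sensory neurons was examined 8 hours after their axons were cut, by setting the 3 libraries titled 8HPI against the 3 libraries titled Control, 6 of the 18 libraries of the series. Of the 47643 genes counted, the 13771 with a CPM (the count scaled to the library's depth) over 1 in at least 3 of the 18 libraries were tested. All cultures came from dorsal root ganglia of CD-1 mouse embryos at e13.5, grown as spot cultures with nerve growth factor and 5-fluorodeoxyuridine (FDU), an agent that kills dividing cells. The control cultures were left uninjured and collected on day 7 in vitro (DIV7). The 8 HPI cultures (hours post injury) were of the same strain, stage and treatments, had their axons cut with a blade and were collected 8 hours later. The injury was made at DIV7 by the published methods, while the label of each injured library gives the same day in vitro as for the controls. The other libraries were collected at 1, 3, 16 and 24 HPI. The model is a culture without target tissue, and the labels do not say whether replicates were separate dissections, so the p-values measure only the spread between these libraries.

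A peripheral sensory neuron whose axon is cut converts the calcium entry and kinase signals of the injury into new transcription. Immediate early genes such as Fos, Jun, Atf3 and Egr1 encode DNA-binding factors that are switched on without new protein synthesis and that set later waves of gene expression. Neurons that regrow lower the expression of channels and receptors of the mature cell while they raise growth-associated genes, and the same injury signals also feed the integrated stress response, in which the factor Atf4 drives amino acid and redox genes, and the p53 response.

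Counts on genes came to 20428645, 13756966 and 20019792 in control and to 17542415, 9478891 and 19109874 at 8 HPI. Deviations from the group mean were shared by libraries of the same replicate number, which was used as a batch term. Of the 10 sensory neuron markers none passed the test by edgeR (1 at an unadjusted p under 0.05, 0 by DESeq2), and their summed level was 13750 to 14450 CPM in control and 13660 to 14190 CPM at 8 HPI. The summed level of 12 glial markers was 190.9 to 245 CPM in control and 198.5 to 240.0 CPM at 8 HPI, that of 10 myeloid markers 4.8 to 7.2 and 7.01 to 7.91 CPM, that of 7 endothelial markers 18.7 to 25.2 and 19.6 to 25.4 CPM, and that of 7 fibroblast markers 4.07 to 12.2 and 4.29 to 21.6 CPM. None of the 15 tested among these markers passed by edgeR or DESeq2 (2 myeloid markers at an unadjusted p under 0.05), Itgam was at 0 in all 6 libraries, and Mag, Gfap, Cldn5, Ptprc and Tyrobp had at most 3 counts in each. The summed level of 6 neural crest and progenitor markers was 4340 to 4728 CPM in control and 4299 to 4862 CPM at 8 HPI. Of these 6 markers, Foxd3 and Sox2 had at most 9 and 8 counts in any of the 6 libraries and were not tested. Nearly all of this sum therefore comes from the 4 tested, Nes, Rtn4, Plxna4 and Dpysl3. Of these 4, 1 passed as lower and none as higher. In bulk RNA, fewer cells of a type and less RNA per cell cannot be told apart.

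At 8 HPI most tested AP-1 and small Maf factors (11 of 12) and 11 of 20 other immediate early genes were higher than in control, as were smaller shares of the inhibitors of MAP kinase signalling (7 of 17, with 1 lower), of the integrated stress response (11 of 28) and of p53 targets (6 of 22). The lists were chosen with earlier results of these data known, so such counts describe the lists and are not independent evidence. A gene was called where its change exceeded 2-fold and its adjusted p lay under 0.05. By that rule 35 genes were called higher, 0.254% of those tested, and 39 were called lower, 0.283%. At any size of change, 521 genes passed an adjusted p of 0.05 as higher (3.78%) and 537 as lower (3.9%), and the median log2 fold change of all tested genes was -0.00092. Of the genes called higher, 91.4% were protein-coding, close to the 90.3% of all tested genes, and of those called lower 25.6%. All 35 called higher and 38 of the 39 called lower had the same direction in each of the 3 batches. The control and 8 HPI libraries did not overlap in 33 of the 35 and 31 of the 39, against 12.3% of all tested genes. Shared direction and separated groups follow in large part from the call, which used these same libraries. They describe the called genes and are no support for the calls. In control, 22 of the 35 and 36 of the 39 lay under 5 CPM. Without the replicate block edgeR called 16 genes, all 16 of them higher, with 37 genes lower by over 2-fold at an unadjusted p under 0.05, and DESeq2 with the block called 15 lower. Leaving out replicate 3 of 8 HPI brought the genes called lower to 5 and leaving out replicate 3 of control brought them to 11, with 35 and 33 genes called higher. With both of these libraries left out, an alternative added after the data were seen, 34 were called higher and 4 lower. These are totals and include genes outside the original 35 and 39. Of the original 35 and 39, 27 and 3 were called without replicate 3 of 8 HPI. Without replicate 3 of control 25 and 10 of them were called, and without both libraries 24 and 2.

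**Figure D1:**
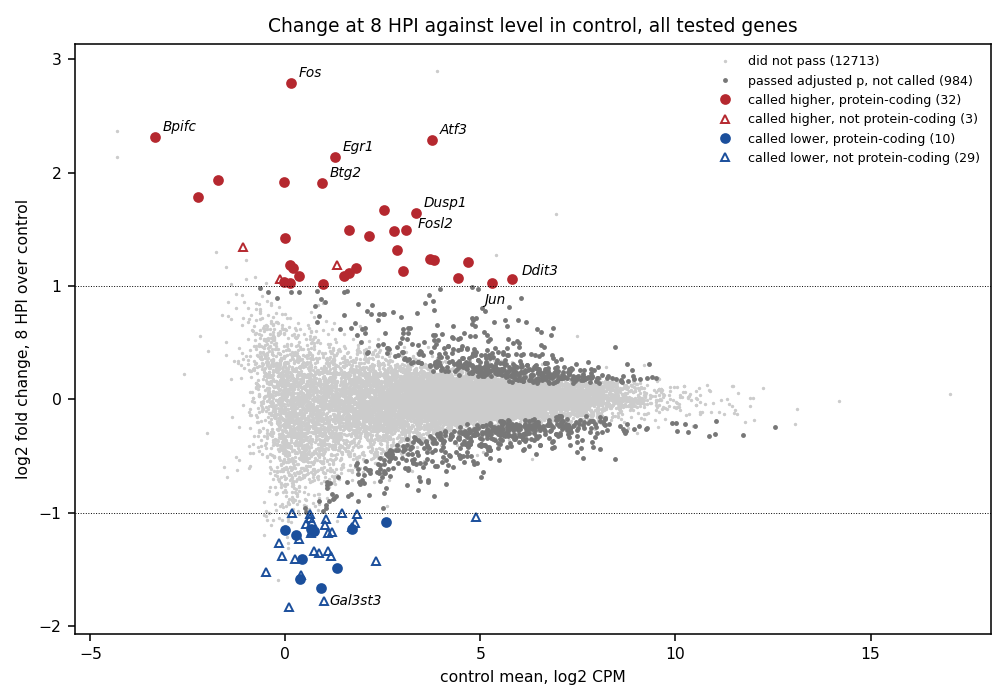
Log2 fold change of 8 HPI over control (vertical axis) against the mean level in control in log2 CPM (horizontal axis, levels under 0.05 CPM drawn at 0.05) for the 13771 tested genes, with called genes in red (higher) and blue (lower), circles for protein-coding and open triangles for other genes. The red circles reach from Bpifc at the low end of expression to Ddit3, while 36 of the 39 blue points lie under 5 CPM and 29 of them are triangles.

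AP-1 factors are dimers of Fos, Jun and Atf proteins that bind the sequence TGANTCA, and small Maf proteins are their shorter relatives. Among 12 tested members of this list, 11 passed as higher and none as lower, with a median log2 fold change of 0.96, and 6 were called. Of the 12, 4 passed without the replicate block and 7 with both replicate 3 libraries left out. Fos (ENSMUSG00000021250.13, chromosome 12 from 85473890 to 85477273 on GRCm38) had 1.07, 1.77 and 0.483 CPM in the control libraries and 7.82, 6.48 and 7.03 CPM at 8 HPI. The lowest library at 8 HPI lay well over the highest control, and the log2 fold change was 2.79 ± 0.3 (quasi-likelihood test of edgeR, Benjamini-Hochberg adjusted p = 5.73e-06). Here and below, the value after ± a log2 fold change is a standard error derived from the F value of that test. It rests on the model over all 18 libraries, with 3 libraries a group, and is not the spread of the 6 compared libraries. Atf3 (chromosome 1 from 191170296 to 191218039), a stress-induced partner of Jun that marks injured sensory neurons, had 7.64, 14.2 and 18.6 CPM in control and 65.9, 63.1 and 64.5 CPM at 8 HPI (2.29 ± 0.22, adjusted p = 1.82e-06). The control libraries of Atf3 were uneven, while those at 8 HPI lay close together. Jun (chromosome 4 from 95049034 to 95052222), needed in sensory neurons for efficient axon regrowth, had 49.0, 30.6 and 38.4 CPM in control and 99, 71.7 and 70.6 CPM at 8 HPI (1.03 ± 0.093, adjusted p = 1.46e-06). Its groups did not overlap, and its change sat at the 2-fold boundary: the call was lost without replicate 2 of 8 HPI, where the log2 fold change was 0.96, without replicate 2 of control and without the replicate block.

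Fosl2, a Fos relative of slower onset, had 8.35, 8.64 and 8.69 CPM in control and 20.7, 21.7 and 29.6 CPM at 8 HPI (1.49 ± 0.12, adjusted p = 1.92e-07). Fosb was much rarer in reads, with 4, 5 and 7 counts in the control libraries and 11, 10 and 34 at 8 HPI (1.94 ± 0.48, adjusted p = 0.0158), and the call was lost without the replicate block, without replicate 3 of 8 HPI and without replicate 1 or 3 of control (log2 fold changes 1.69 to 1.95), and with both replicate 3 libraries left out (1.54). Maff, a small Maf protein, had 9.73, 8.42 and 5.94 CPM in control and 19.1, 15.1 and 17.2 CPM at 8 HPI (1.13 ± 0.12, adjusted p = 5.91e-06). The call of Maff was lost without replicate 3 of control (0.99) and with both replicate 3 libraries left out (0.92). Among the members that passed without being called, Junb reached 0.88 ± 0.23, Mafk 0.36 ± 0.11, Jund 0.28 ± 0.07 and Mafg 0.21 ± 0.051 on the log2 scale. Mafg and Jund, which moved least of the 4, were well expressed in control, with 111, 108 and 116 CPM and 98.5, 105 and 113 CPM.

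The list of other immediate early genes held 20 tested members, of which 11 passed as higher, 6 of them called, and none as lower (median 0.53). Egr1, a zinc finger factor driven by serum response factor, had 2.65, 2.29 and 2.32 CPM in control and 12.7, 8.71 and 10.3 CPM at 8 HPI (2.14 ± 0.21, adjusted p = 2.02e-06). Arc, which encodes a synaptic capsid-like protein, had 1.17, 0.813 and 0.966 and 3.21, 3.61 and 4.5 CPM (1.91 ± 0.22, adjusted p = 1.1e-05). Btg2, an antiproliferative gene induced by p53 and by activity, had 1.43, 2.22 and 2.12 and 7.33, 7.43 and 6.63 CPM (1.91 ± 0.2, adjusted p = 3.6e-06). In all 3 genes every library at 8 HPI lay above every control library. Ier2 (1.44 ± 0.19, adjusted p = 5.84e-05), Ier3 (1.23 ± 0.12, adjusted p = 2.38e-06) and Bhlhe40, a repressor of the circadian clock (1.32 ± 0.12, adjusted p = 1.82e-06), were called as well. Among these, Ier3 lost its call without the replicate block. The clock gene Per1 (0.92 ± 0.092, adjusted p = 2.32e-06) and the kinase Plk2 (0.69 ± 0.066, adjusted p = 1.93e-06) passed under the 2-fold limit. Per1 had 9.73, 12.1 and 16.7 CPM in control and 19.1, 24.3 and 29.6 CPM at 8 HPI, so that its groups did not overlap. Klf6 passed at 0.26 ± 0.065. Egr2, Egr3, Egr4, Nr4a1, Nr4a3 and Npas4 had at most 11 counts in any of the 6 libraries and did not reach the level for testing. Of the 20, 6 passed without the replicate block.

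**Figure D2:**
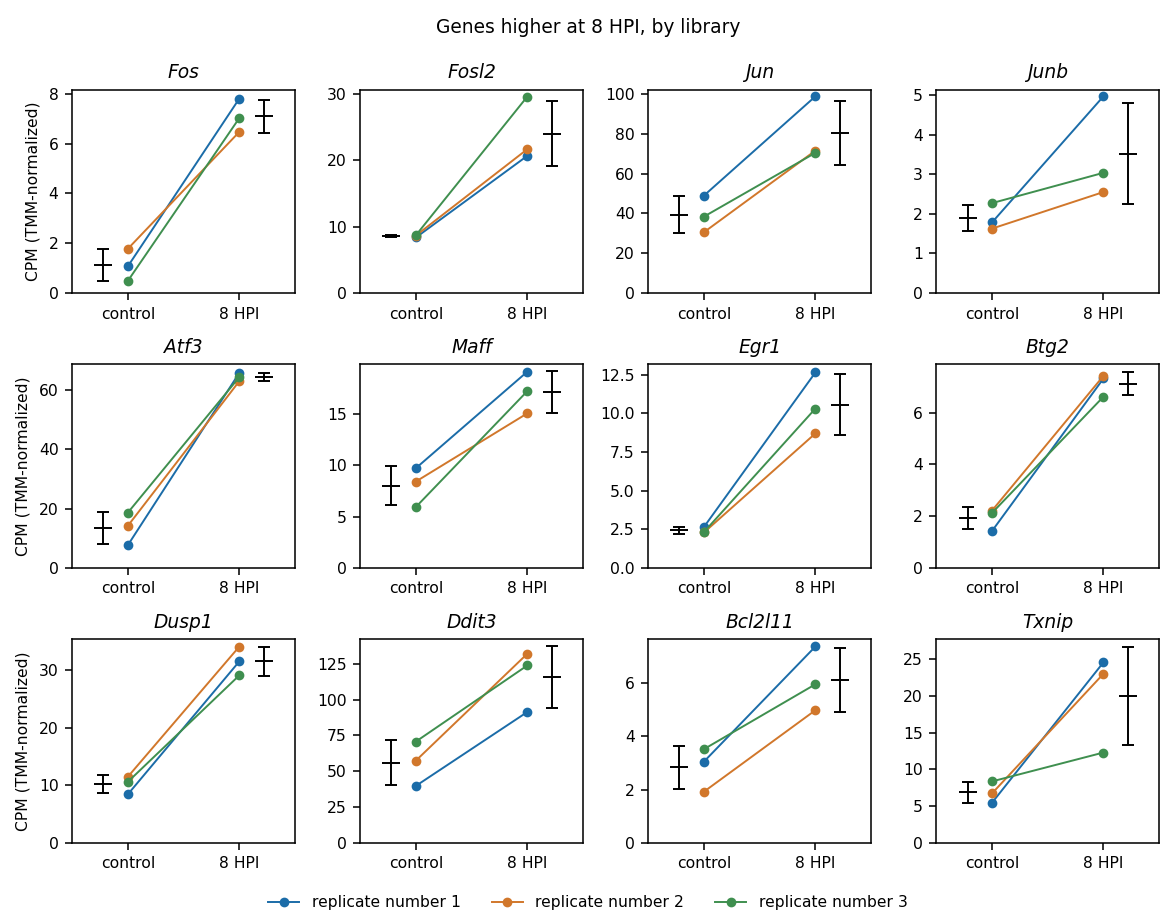
TMM-normalized CPM (vertical axes, each from 0) of 12 genes in the control and 8 HPI libraries, with lines joining libraries of the same replicate number and black bars showing the mean ± SD of 3 libraries. In each gene all 3 lines rise, and Fos goes from between 0.483 and 1.77 CPM to between 6.48 and 7.82 CPM.

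Dual-specificity phosphatases (Dusp) remove phosphate from MAP kinases and are themselves transcribed when those kinases are active, and Sprouty and Errfi1 proteins dampen receptor signalling upstream. Of 17 tested feedback inhibitors, 7 passed as higher and 1 as lower (median 0.31). Dusp1 (chromosome 17 from 26505590 to 26562128), which acts on Jnk and p38 kinases, had 8.4, 11.4 and 10.6 CPM in control and 31.5, 34.1 and 29.1 CPM at 8 HPI (1.64 ± 0.12, adjusted p = 4.08e-08). No control library came near the lowest library at 8 HPI. Dusp4 was called at 1.11 ± 0.21, adjusted p = 0.0023, and at 0.99 without replicate 3 of control it fell below the limit. Dusp14 (0.75 ± 0.15), Dusp16 (0.75 ± 0.14) and Dusp8 (0.4 ± 0.063) passed as higher. Dusp7, which acts on Erk in the cytoplasm, went the other way, from 23.1, 23.1 and 21.8 CPM in control to 17.1, 19.3 and 19.2 CPM at 8 HPI (-0.29 ± 0.072, adjusted p = 0.0157). Without the replicate block 3 passed, all higher, and with both replicate 3 libraries left out 3 were higher and 1 lower. The kinases and scaffolds of the DLK-JNK pathway, which carries the injury signal from the axon to the nucleus, are listed separately. None of the 19 tested members passed by edgeR (2 at an unadjusted p under 0.05, 0 by DESeq2), and their log2 fold changes lay between -0.14 and 0.14.

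Promoter sequence was read from RefSeq on GRCm38.p6, in windows from 250 bases before to 50 bases after each annotated start, with the letters searched on both strands. The cyclic AMP response element (CRE) was searched as TGACGTCA and the AP-1 site as TGANTCA, 2 motifs that do not overlap each other. Of 507 protein-coding genes that passed as higher, 393 were matched to a window by name, and 9.92% of these held a CRE, against 2.08% of the 384 matched genes that passed as lower and 3.78% of all 9773 matched protein-coding genes tested. An AP-1 site stood in 9.67%, 2.86% and 5.73% of the same genes. The EGR motif GCGNGGGCG was found in 14.0%, 18.5% and 13.1%, and the CArG box, the binding motif of serum response factor, in 2.29%, 1.3% and 1.51%. Among the 32 protein-coding genes called higher, 23 were matched. A CRE stood before 4 of these (Areg, Btg2, Dusp1 and Maff), an AP-1 site before 4 others (Bpifc, Ddit3, Dhrs9 and Serpinb2) and an EGR motif before 6 (Bcl2l11, Btg2, Cftr, Fosb, Fosl2 and Maff). A window was found for 77.5% of the genes that passed as higher, 79.2% of those that passed as lower, 78.8% of all tested and 71.9% of those called higher, short of the 80% set for a check over gene sets, which is therefore void, and the shares describe the matched genes only, and a match is a run of letters and not a bound site. The 250 bases before the start of the 4 CRE genes and of Ddit3, the best expressed of the AP-1 group, are shown 5′ to 3′ on the strand of the gene, with the CRE or AP-1 site in capitals and the EGR motifs of Btg2 and Maff left in lower case, because these genes stand for the feedback, growth factor and stress genes that rose at 8 HPI. The regions are chr17:26508473-26508722 on the minus strand for Dusp1, chr1:134079156-134079405 on the minus strand for Btg2, chr15:79347270-79347519 on the plus strand for Maff (1 of its annotated starts), chr5:91139349-91139598 on the plus strand for Areg and chr10:127290543-127290792 on the plus strand for Ddit3.
Dusp1: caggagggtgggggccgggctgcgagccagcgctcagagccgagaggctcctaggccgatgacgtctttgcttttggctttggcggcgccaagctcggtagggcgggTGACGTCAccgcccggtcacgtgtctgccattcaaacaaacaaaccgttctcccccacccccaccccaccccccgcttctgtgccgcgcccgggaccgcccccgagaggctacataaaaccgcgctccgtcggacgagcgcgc
Btg2: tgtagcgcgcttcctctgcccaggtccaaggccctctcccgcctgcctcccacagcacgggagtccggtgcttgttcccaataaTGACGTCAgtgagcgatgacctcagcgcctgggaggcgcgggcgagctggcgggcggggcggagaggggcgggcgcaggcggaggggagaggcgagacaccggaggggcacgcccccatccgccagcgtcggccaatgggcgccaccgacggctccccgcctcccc
Maff: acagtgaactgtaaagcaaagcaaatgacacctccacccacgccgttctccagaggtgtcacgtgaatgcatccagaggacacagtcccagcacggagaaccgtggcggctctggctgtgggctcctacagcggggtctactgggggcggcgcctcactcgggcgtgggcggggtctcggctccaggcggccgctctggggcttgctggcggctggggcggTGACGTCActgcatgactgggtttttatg
Areg: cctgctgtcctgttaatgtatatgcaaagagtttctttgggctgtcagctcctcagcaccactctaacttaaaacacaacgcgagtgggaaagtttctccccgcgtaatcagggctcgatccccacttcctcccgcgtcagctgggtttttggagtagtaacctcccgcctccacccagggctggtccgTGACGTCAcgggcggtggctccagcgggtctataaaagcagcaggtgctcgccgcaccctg
Ddit3: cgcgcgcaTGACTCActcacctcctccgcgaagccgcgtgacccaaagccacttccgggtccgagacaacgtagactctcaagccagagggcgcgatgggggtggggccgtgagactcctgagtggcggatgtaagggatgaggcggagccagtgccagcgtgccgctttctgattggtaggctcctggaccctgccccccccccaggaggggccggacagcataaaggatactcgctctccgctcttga
The CRE began 143 bases before the start in Dusp1, 166 in Btg2, 29 in Maff and 61 in Areg, and the AP-1 site 242 bases before it in Ddit3.

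The integrated stress response list held 28 tested genes, all 28 of which had a log2 fold change above 0. Of these, 11 passed as higher and none as lower (median 0.16), and 1 was called. Ddit3 (chromosome 10 from 127290774 to 127296288), which encodes the factor CHOP, had 39.7, 57.4 and 70.7 CPM in control and 91.4, 132 and 124 CPM at 8 HPI (1.06 ± 0.11, adjusted p = 3.36e-06). Its libraries did not overlap between groups, although the control libraries alone ran over a wide range. The call of Ddit3 was lost without the replicate block (log2 fold change 1.05). Ppp1r15a, whose product restores translation after stress, had 38.8, 75.5 and 84.6 and 92.5, 134 and 134 CPM (0.89 ± 0.12, adjusted p = 1.19e-04). Cebpb (0.77 ± 0.16), Ddit4, an inhibitor of mTORC1 (0.7 ± 0.11), the secreted glycoprotein Stc2 (0.7 ± 0.088), Sesn2 (0.68 ± 0.088) and Chac1, which degrades glutathione (0.62 ± 0.064), passed as well. Atf4 itself, the factor of this response, passed with a small change, from 332, 446 and 426 CPM to 412, 491 and 482 CPM (0.21 ± 0.057, adjusted p = 0.029). Atf4 is controlled mostly by translation, which these counts do not measure, and its libraries overlapped. The chaperone Hspa5, a marker of the unfolded protein response, passed at 0.46 ± 0.057 with libraries of 318, 365 and 359 CPM in control and 483, 499 and 456 CPM at 8 HPI. Of the 28, 1 passed without the replicate block, and with both replicate 3 libraries left out 9 of them.

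Of 22 tested genes in the list of p53 targets, 6 passed as higher and none as lower (median 0.14), and none was called at 2-fold. Btg2, which is also induced by p53 and was called, was placed with the immediate early genes and is not among the 22. Gadd45a, a stress sensor that also belongs to the regeneration-associated list, had 16.4, 30.0 and 35.9 CPM in control and 43.1, 56.3 and 59.4 CPM at 8 HPI (0.99 ± 0.1, adjusted p = 2.38e-06). Bbc3, which encodes the death-promoting BCL2 relative Puma, had 24.1, 27.5 and 40.7 and 60.5, 55.3 and 62.5 CPM (0.98 ± 0.11, adjusted p = 5.38e-06). Both stood just under the 2-fold limit with groups that did not overlap. Trp53inp1 (0.72 ± 0.12) and Mdm2 (0.39 ± 0.06) passed by smaller amounts. Of 13 tested members of the BCL2 family, 4 passed as higher. Bcl2l11, which encodes the death-promoting protein Bim and is a known target of Jun in neurons, was called, from 3.06, 1.92 and 3.52 CPM in control to 7.39, 4.99 and 5.97 CPM at 8 HPI (1.09 ± 0.19, adjusted p = 0.00149), and at 0.96 without replicate 2 of control it fell below the limit. The list also held survival genes that passed, namely Bcl2 (0.45 ± 0.11) and Bcl2l1 (0.23 ± 0.059), so that members of opposite function moved the same way. Without the replicate block edgeR passed 1 of the p53 targets and 0 of the BCL2 family, 4 of which had an unadjusted p under 0.05, and DESeq2 with the block passed 3 of the family.

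Among 27 tested regeneration-associated genes, 6 passed as higher and none as lower (median 0.076). Sox11, a factor of neuronal growth, had 113, 113 and 124 CPM in control and 204, 156 and 179.9 CPM at 8 HPI (0.63 ± 0.074, adjusted p = 1.54e-05). Tnfrsf12a, the Tweak receptor, which rises in regrowing sensory neurons, had 6.37, 4.88 and 5.65 and 10.1, 9.35 and 9.21 CPM (0.75 ± 0.14, adjusted p = 0.00252). Every library at 8 HPI exceeded every control in both genes. Structural growth genes already abundant in these embryonic neurons did not pass: Stmn2, the gene of the regeneration marker SCG10, had 1689, 1624 and 1392 CPM in control and 1650.0, 1716 and 1647 CPM at 8 HPI (0.098 ± 0.065, adjusted p = 0.408), and Gap43 had a log2 fold change of 0.066 ± 0.057. A list of transcription factors that the study selected at this time point holds 13 genes. Of these, 12 were called, a count that is not independent evidence because the factors were chosen on these libraries. The exception, Tgif1, had 5, 4 and 25 counts in control and 19, 11 and 31 at 8 HPI (1.08 ± 0.45, adjusted p = 0.157), and control replicate 3 overlapped the 8 HPI group. A further list holds the 8 factors that were later introduced by lentivirus, and Atf3, Fos and Egr1 of these were called. Ctcf (-0.025 ± 0.09), Yy1 (0.061 ± 0.067), E2f2 (-0.19 ± 0.2), Ebf1 (0.081 ± 0.05) and Nfya (-0.05 ± 0.15) did not pass, with adjusted p between 0.369 and 0.912.

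Other genes called higher cover secreted and surface proteins, redox genes and factors of less settled role. Hes1, a Notch-driven repressor, had 5.55, 2.14 and 1.59 CPM in control and 11.8, 5.73 and 7.39 CPM at 8 HPI (1.5 ± 0.27, adjusted p = 0.00149). The call of Hes1 was lost without the replicate block and with both replicate 3 libraries left out. Arid5a, which stabilizes inflammatory mRNAs, had 2.34, 6.8 and 8.21 and 16.7, 19.4 and 17.1 CPM (1.67 ± 0.23, adjusted p = 9.85e-05), and Elmsan1, a component of histone deacetylase complexes, 17.6, 23.8 and 35.9 and 56.0, 54.7 and 64.5 CPM (1.22 ± 0.12, adjusted p = 1.93e-06). In these 3 genes the groups did not overlap, and the control libraries were uneven. The calls of Arid5a and Elmsan1 were lost without the replicate block as well. Txnip, an inhibitor of thioredoxin and of glucose uptake, had 5.45, 6.72 and 8.35 CPM in control and 24.6, 23 and 12.3 CPM at 8 HPI (1.49 ± 0.23, adjusted p = 3.75e-04), with replicate 3 the least changed. Hmox1, the haem oxygenase driven by Nrf2, had 14.9, 25.0 and 23.9 and 37.5, 42.3 and 51.5 CPM (1.07 ± 0.11, adjusted p = 2.02e-06), and was 1 of 4 genes that passed among 24 tested Nrf2 and heat shock genes. The call of Hmox1 was lost without the replicate block and, at 0.99, without replicate 1 of control. Areg, a ligand of the epidermal growth factor receptor, had 4.94, 4.36 and 1.25 and 12.2, 6.37 and 4.0 CPM (1.16 ± 0.18, adjusted p = 4.6e-04). The Areg groups overlapped, since replicate 3 was low in both, while each batch rose by 1.29, 0.54 and 1.59 on the log2 scale. Without the replicate block the call of Areg was lost. Calcrl, the receptor subunit for the sensory peptide CGRP, was called at 1.24 ± 0.14, adjusted p = 1.1e-05.

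Among 33 tested genes of matrix proteases, integrins and axon guidance, 3 passed as higher and 7 as lower (median -0.059). Plat, the tissue plasminogen activator, had 29.5, 27.3 and 25.7 CPM in control and 54.4, 41.1 and 36.1 CPM at 8 HPI (0.66 ± 0.081, adjusted p = 2.36e-05). The fibronectin receptor subunit Itga5 (1.18 ± 0.31, adjusted p = 0.0209) and the protease Adamts1 (1.02 ± 0.25, adjusted p = 0.016) were called at low counts. The call of Itga5 was lost without replicate 3 of 8 HPI (log2 fold change 0.76) and without replicate 1 or 3 of control, and that of Adamts1 without replicate 1 or 2 of 8 HPI (0.67 and 0.89) and without replicate 1 of control (0.77). Both calls were also lost without the replicate block. Of the 7 that passed as lower, 6 were axon guidance genes that fell by 0.23 to 0.3 on the log2 scale, Plxna4 among them (-0.3 ± 0.068). The seventh, Adamts15, was called (-1.08 ± 0.33, adjusted p = 0.0498) with 7.69, 3.1 and 7.19 CPM in control and 5.27, 1.7 and 1.77 CPM at 8 HPI, and its libraries overlapped.

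Bpifc and Dhrs9, both far below 1 CPM in control, had large fold changes on few reads. Bpifc, of the lipid-binding BPI family, had 1, 2 and 2 counts in the control libraries and 9, 5 and 8 at 8 HPI, a ratio of 5.17 between the groups with a 95% counting interval of 1.91 to 17.5. Dhrs9, a retinol and steroid dehydrogenase, had 2, 4 and 5 counts in control and 9, 7 and 17 at 8 HPI (1.78 ± 0.52, adjusted p = 0.0377). The call of Dhrs9 was lost with any 1 of the 6 libraries left out, and that of Bpifc without replicate 2 or 3 of 8 HPI and without replicate 1 or 3 of control. Both calls were also lost without the replicate block.

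**Figure D3:**
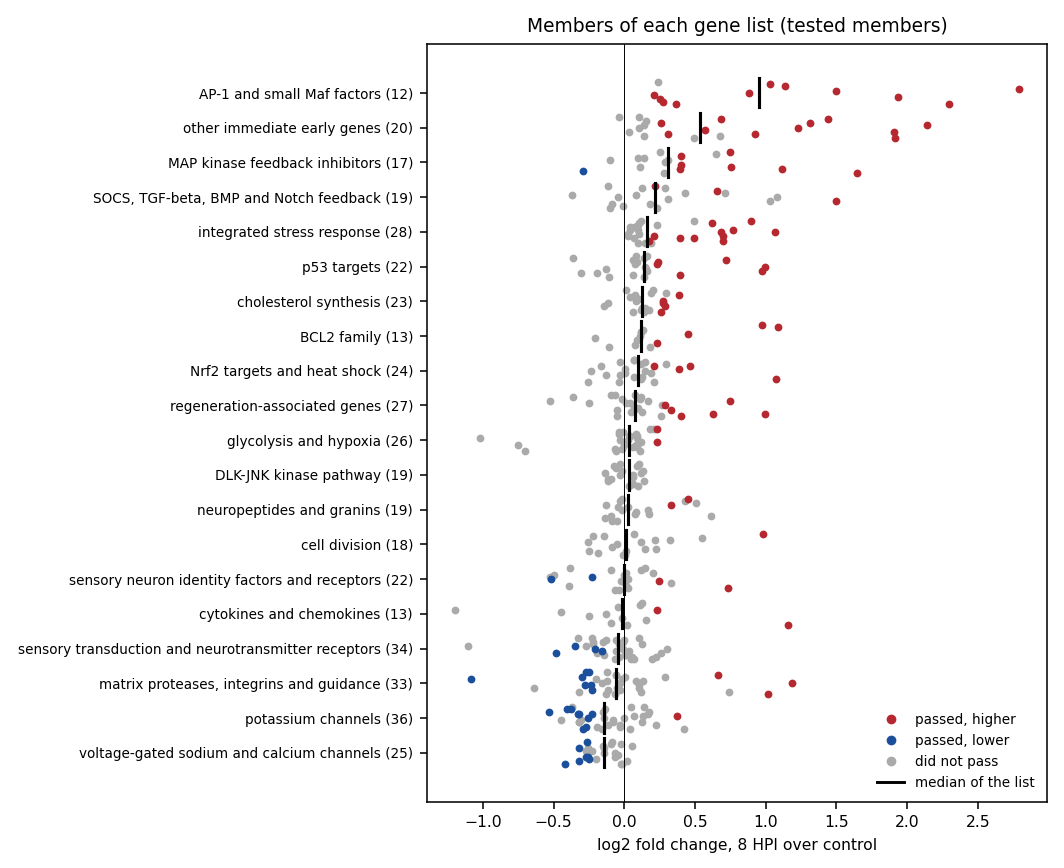
Log2 fold change of 8 HPI over control (horizontal axis) for every tested member of each gene list (rows, with the number tested), coloured by whether the member passed an adjusted p of 0.05, with a black bar at the median of the list. AP-1 factors and other immediate early genes sit to the right with medians of 0.96 and 0.53, and sodium, calcium and potassium channels to the left with medians of -0.15 and -0.14.

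Among genes of excitability, 20 of 95 passed as lower, 1 as higher and 74 did not pass. Over all tested genes, 3.9% passed as lower and 3.78% as higher. Of 25 tested voltage-gated sodium and calcium channel subunits, 7 passed as lower, none as higher, and 2 had a log2 fold change above 0 (median -0.15). Scn9a and Scn10a, which encode the nociceptor sodium channels Nav1.7 and Nav1.8, had 638, 590.4 and 581 and 549.5, 413 and 508 CPM in control and 588, 458 and 473 and 478, 342 and 408 CPM at 8 HPI. The libraries of each gene overlapped between groups while every batch fell, and the log2 fold changes were -0.26 ± 0.058, adjusted p = 0.00921 for Scn9a and -0.26 ± 0.061, adjusted p = 0.0106 for Scn10a. Scn8a, the Nav1.6 channel of the axon initial segment, had 114, 132 and 135 CPM in control and 86.7, 105 and 114 CPM at 8 HPI (-0.32 ± 0.057, adjusted p = 0.00134), with groups next to each other and not overlapping. Cacna1a, the P/Q calcium channel of synaptic terminals, fell furthest of this list (-0.42 ± 0.075, adjusted p = 0.00149). Of 36 tested potassium channel subunits, 9 passed as lower and 1 as higher (median -0.14). The inward rectifier Kcnj12 had 20.3, 14.7 and 17.4 CPM in control and 15, 11.5 and 10.3 CPM at 8 HPI (-0.53 ± 0.12, adjusted p = 0.00949), with groups that overlapped while each batch fell. The exception was Kcnk2, the leak channel TREK-1, with 17.1, 15.1 and 15.3 CPM in control and 19.7, 20.9 and 20.9 CPM at 8 HPI (0.37 ± 0.088, adjusted p = 0.0126). Of 34 transduction channels and transmitter receptors, 4 passed as lower and none as higher (median -0.047). Asic3, an acid sensor of muscle afferents, had 79.1, 83.0 and 95.5 and 56.6, 68.0 and 61.2 CPM (-0.48 ± 0.072, adjusted p = 3.12e-04), the mu opioid receptor Oprm1 passed at -0.35 ± 0.076 and the touch channel Piezo2 at -0.21 ± 0.062.

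None of these channel genes was called at 2-fold, and the number that passed depended on the block. In edgeR without the replicate block 0 of the sodium and calcium channels and 0 of the potassium channels passed, with 4 and 8 at an unadjusted p under 0.05, whereas DESeq2 with the block passed 8 and 9. With both replicate 3 libraries left out 1 and 3 passed as lower, while the medians were -0.16 and -0.12. The protein-coding genes that passed as lower were long, with a median span of 56327 bases against 26235 for all tested protein-coding genes and 21928 for those that passed as higher. The part of gene length in these counts was not tested.

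Few identity factors of sensory neurons passed. Of 22 tested, 2 passed as higher and 2 as lower (median 0.00074), where 3.78% and 3.9% of all tested genes did. Runx1, a factor of nociceptor fate, had 2.5, 1.26 and 1.69 CPM in control and 5.15, 1.7 and 2.28 CPM at 8 HPI (0.73 ± 0.21, adjusted p = 0.0363), and Isl2 had 31.8, 26.9 and 55.8 and 29.2, 20.2 and 28.9 CPM (-0.52 ± 0.12, adjusted p = 0.0134). Both overlapped between groups, and replicate 3 of control stood apart for Isl2. Of 23 cholesterol synthesis genes, 5 passed as higher (median 0.12), with Idi1 the furthest (0.39 ± 0.077, adjusted p = 0.00345), while edgeR passed 0 without the replicate block and 0 with both replicate 3 libraries left out (5 and 6 at an unadjusted p under 0.05) and DESeq2 with the block passed 6. Glycolysis and hypoxia genes (2 of 26 higher), neuropeptides and granins (2 of 19), cytokines (2 of 13, Areg called), SOCS, TGF-beta and Notch feedback genes (3 of 19, Hes1 called) and cell division genes (1 of 18) had none that passed as lower. At the shares of all tested genes, 3.78% higher and 3.9% lower, lists this small would hold few that passed either way.

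**Figure D4:**
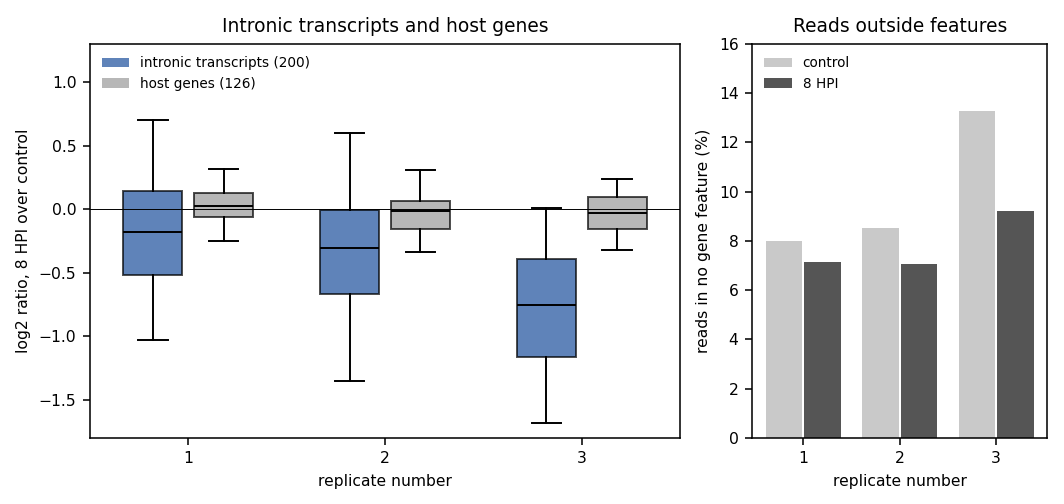
Left, log2 ratio of 8 HPI over control within each replicate number (horizontal axis) for 200 intronic transcripts and their 126 host genes, as boxes with the median, quartiles and 5th to 95th percentiles. Right, percentage of reads in no gene feature in each library, with bars from 0. The blue boxes fall furthest in replicate 3, where control has the most reads outside features, and the grey boxes stay near 0.

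Of the 39 genes called lower, 29 were not protein-coding, and 20 were transcripts of the classes TEC or sense_intronic that lay inside an intron of a protein-coding gene on the same strand without touching its exons. These 20 lay in 12 host genes, among them 4 in Auts2 and 3 each in Frmd4a and Kctd8, with host spans of 21396 (Tdrkh) to 1106012 bases (Auts2) and a median of 215523. Gm44439, inside Chl1, had 12, 19 and 24 counts in control and 4, 3 and 6 at 8 HPI (-1.83 ± 0.42, adjusted p = 0.01). Gm42588, inside Auts2, had 34, 14 and 66 and 9, 7 and 12 counts (-1.78 ± 0.38, adjusted p = 0.00638), and Gm42888, inside Kctd8 and the best expressed of the intronic calls, 76, 55 and 147 and 40, 19 and 28 counts (-1.43 ± 0.26, adjusted p = 0.00171). Gm43229 (Kctd8), Gm42463 (Tdrkh), Gm38036 (Plxna2) and Gm10862 (Frmd4a) were called at -1.55, -1.52, -1.41 and -1.39 on the log2 scale. In that order, the calls were kept in 8 of 12, 3 of 12, 4 of 12 and 9 of 13 alternatives that gave a value. Each of the intronic calls named here was lost without replicate 3 of 8 HPI. A further 6 genes called lower were annotated as antisense, among them Dnm3os, which lies within Dnm3 on the opposite strand and was called at -1.39 ± 0.37, adjusted p = 0.0257. The call of Dnm3os was kept in 5 of 12 alternatives that gave a value. Reads of an intronic gene and of the unspliced transcript of its host lie on the same strand and cannot be told apart. The counting was not stated to use strand, so reads of the antisense genes and of their partners cannot be told apart either.

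The host genes had smaller values. None of the 12 hosts was called, 3 passed as lower, and their log2 fold changes ran from -0.42 (Plxna2) to 0.1 (Frmd4a). Over all 200 tested transcripts of this kind, 182 were lower at 8 HPI and the median log2 fold change was -0.51, while 64 of their 126 host genes were lower, with a median of -0.0066. The shift was not particular to 8 HPI: against control the median of the intronic transcripts was -0.175, -0.413, -0.355 and -0.429 at 1, 3, 16 and 24 HPI. Only 40 of them were over 1 CPM in all 18 libraries, and in that fit 33 were lower, with a median of -0.329. The median of the intronic transcripts was -0.18, -0.3 and -0.76 in the 3 batches and -0.255 in the fit with both replicate 3 libraries left out. At 8 HPI the share of reads that fell in no gene feature moved the same way: it was 8%, 8.51% and 13.3% in control and 7.15%, 7.05% and 9.23% at 8 HPI, with its widest gap in replicate 3. At 16 HPI the share was 10.7%, 9.57% and 10.5%, higher than in control in replicates 1 and 2. At 1, 3 and 24 HPI it was lower than in control in each replicate. Its part in these calls was not tested.

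Coding genes called lower were weakly expressed. Gal3st3, a sulfotransferase of glycans, had 1.17, 1.85 and 2.65 CPM in control and 0.545, 0.850 and 0.506 CPM at 8 HPI (-1.66 ± 0.3, adjusted p = 0.00157). Gm9821 (-1.49 ± 0.28, adjusted p = 0.00221) and Smco4 (-1.59 ± 0.43, adjusted p = 0.0258) followed. Gal3st3 and Gm9821 kept their calls in 11 of the 13 alternatives that gave a value, and lost them without the replicate block and with both replicate 3 libraries left out. The embryonic and adult alpha globins Hba-x and Hba-a1 were called as well, with 8, 22 and 41 and 30, 55 and 87 counts in control and 0, 5 and 20 and 27, 12 and 27 counts at 8 HPI (-1.41 ± 0.42, adjusted p = 0.0422, and -1.15 ± 0.35, adjusted p = 0.0481). Hba-a1 was the 1 gene called lower that did not fall in every batch, at 0.092, -1.59 and -1.54 on the log2 scale, and without replicate 3 of 8 HPI its log2 fold change was -0.44. Its call was lost in 9 of the 13 alternatives that gave a value and that of Hba-x in 8 of 12. Of 9 erythroid markers 4 were tested, both calls are among them, and the summed level of the 9 was 4.85 to 18.2 CPM in control and 5.24 to 7.95 CPM at 8 HPI. Hba-a2, Hbb-bt and Hbb-bh1 had at most 3 counts in each library, and by DESeq2 none of the 4 passed. The mitochondrial transfer RNA mt-Tp had 35.3, 22.8 and 30.8 CPM in control and 12.4, 10.6 and 22.5 CPM at 8 HPI (-1.04 ± 0.23, adjusted p = 0.00833).

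The 8 HPI libraries were then set directly against the libraries of 3, 16 and 24 HPI, in contrasts of the same fit over all 18 libraries that do not set the controls on either side. Against 3 HPI, 24 genes were called higher at 8 HPI (0.174%) and 2 lower (0.0145%). Against 16 HPI, 19 were higher (0.138%) and 110 lower (0.799%), and against 24 HPI 47 were higher (0.341%) and 73 lower (0.53%). The genes called at 8 HPI against control were followed through these contrasts, which share the 8 HPI libraries with the comparison that chose them, so the counts are a description. At an adjusted p of 0.05, 1.74% of all tested genes were higher and 0.559% lower at 8 than at 3 HPI, 7.86% and 7.3% than at 16 HPI, and 7.34% and 4.71% than at 24 HPI. Of the 35 called higher, 23 were higher at 8 than at 3 HPI and none lower. Against 16 HPI, 10 were higher at 8 HPI and 5 lower, and against 24 HPI 27 were higher and 2 lower. Fos stood at 0.043 against 3 HPI on the log2 scale (adjusted p = 0.961) and Fosb at -0.81 (adjusted p = 0.255), neither past the test, while Atf3 and Jun were higher at 8 HPI by 2.12 and 1.19. Of the 39 called lower, 1 was lower at 8 than at 3 HPI, 5 lower than at 16 HPI and 7 lower than at 24 HPI, and none was higher at 8 HPI in any of the 3.

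**Figure D5:**
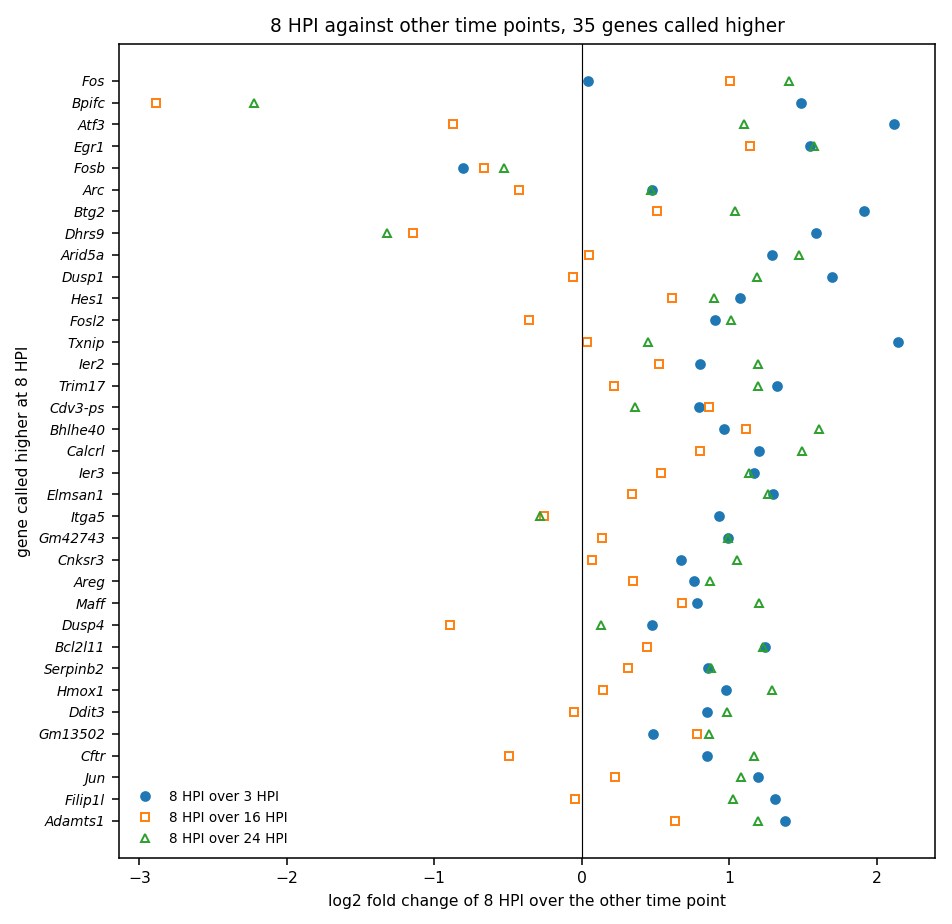
Log2 fold change of 8 HPI over 3, 16 and 24 HPI (horizontal axis) for the 35 genes called higher at 8 HPI against control (rows, ordered by that change). Most circles (3 HPI) and triangles (24 HPI) lie to the right of 0, whereas the squares (16 HPI) lie on both sides and Bpifc and Dhrs9 reach to the left for 16 and 24 HPI.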

How the data were processed

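Total RNA of the cultures was depleted of ribosomal RNA and made into SMARTer cDNA per the labels. The authors deposited raw counts per gene for each library, without normalization. The study's methods give cutadapt, STAR and featureCounts on mm10 with GENCODE vM20, whereas the submitters' processing notes and the closing entries of the files point to HTSeq. The setting for strand is not given in the sources used here. Reads assigned to no gene were 25.2% to 31.2% of the 6 libraries and were left out. Gene names and positions came from GENCODE vM21 on GRCm38, which matched 47224 of 47643 identifiers.

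Counts were analysed with edgeR 4.0.16 in R 4.3.3: genes over 1 CPM in at least 3 libraries, TMM factors, 1 quasi-likelihood model over all 18 libraries with time point and replicate number, two-sided tests, and Benjamini-Hochberg adjustment over the 13771 genes. The study corrected for batch with edgeR, EDASeq and RUVSeq, and here the replicate number stood for the batch. Deviations from the group means correlated between libraries of the same number (r = 0.499 to 0.671 in the 3 pairs of control and 8 HPI, -0.431 to -0.0845 in the 6 other pairs). CPM values are TMM-normalized, and ratios within a batch used log2 CPM with a prior count of 2. The libraries at 8 HPI reach down to 0.157 to 0.317 CPM at 3 counts, a limit that covers counting error only, as does the interval for Bpifc.

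Genes named were the 12 called genes furthest from control in each direction with 1 direction across the 3 batches, list members called or past adjusted p over 1.5-fold, the 2 members of each list highest in control, and the factors the study names. This rule gave 114 genes, and those not written out are covered by the counts. Txnip, Calcrl, Gap43, Dusp7, Dusp8, Mafk, Idi1, Isl2, Hspa5, Mdm2, Atf4, Bcl2, Cftr, Serpinb2, mt-Tp, the host genes of introns and the genes Asic3, Cacna1a, Kcnj12, Kcnk2, Oprm1 and Scn8a lie outside it and were chosen after their values were seen. The members and lists were chosen with earlier results of these data known. On simulated counts for this comparison the test called 97.5% of the 200 genes given a 3-fold change, and 2 genes without one, of 13771 in all. The simulated counts held no replicate effect, and the changed genes were drawn from all tested genes (median 19.57 CPM in control). These rates therefore do not carry over to calls near 2-fold or under 5 CPM. Alternatives were DESeq2 1.42.0 (its size factors, or its Wald test), 2 other filters, no replicate block, the compared groups alone, mitochondrial and residual rRNA genes left out, each library left out and, added after the data were seen, both replicate 3 libraries left out.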

Additional observations from a re-analysis of the deposited data

Results flagged for a closer look

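The genes below were called at 8 HPI against control and also differed by over 2-fold, at an adjusted p under 0.05, between 8 HPI and another time point in a direct test (quasi-likelihood test of edgeR, p adjusted by Benjamini-Hochberg over all 13771 genes). Values are log2 fold changes of 8 HPI over the other time point. Only genes whose change against control is given above are listed, and the counts cover these alone. Other called genes met the same rule and are not listed. Among them were Trim17 (1.32 against 3 HPI, 1.19 against 24 HPI), Filip1l (1.31 and 1.02) and Cftr (1.17 against 24 HPI). On the lower side, Igdcc3 stood at -1.52 against 16 HPI and -1.09 against 24 HPI.

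Against 3 HPI, 13 of the listed genes were higher at 8 HPI. Txnip led at 2.15, with Atf3 at 2.12, Btg2 at 1.91 and Dusp1 at 1.7. Egr1 stood at 1.54, Adamts1 at 1.38, Elmsan1 at 1.3, Arid5a at 1.29, Bcl2l11 at 1.24 and Calcrl at 1.2. Jun at 1.19, Ier3 at 1.17 and Hes1 at 1.07 completed this group. The 1 gene lower at 8 than at 3 HPI was Gal3st3, at -1.21.

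Against 16 HPI, Egr1 was higher at 8 HPI by 1.14, Bhlhe40 by 1.11 and Fos by 1.0. Bpifc stood at -2.89 and Dhrs9 at -1.15, both lower at 8 than at 16 HPI, and Gal3st3 at -1.24.

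Against 24 HPI, 17 of the listed genes called higher were higher at 8 HPI. Bhlhe40 led at 1.61, then Egr1 at 1.57, Calcrl at 1.5, Arid5a at 1.47 and Fos at 1.4. Hmox1 stood at 1.29, Elmsan1 at 1.26, Bcl2l11 at 1.23, Maff at 1.2, Adamts1 at 1.2, Ier2 at 1.19 and Dusp1 at 1.19. Ier3 at 1.13, Atf3 at 1.1, Jun at 1.08, Btg2 at 1.04 and Fosl2 at 1.01 followed. Dhrs9 at -1.32 and Bpifc at -2.22 were lower at 8 than at 24 HPI, and so were Gal3st3 at -1.3, Gm9821 at -1.21 and Smco4 at -1.72.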

How the results depend on the processing

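Of the 35 genes called higher, 24 to 35 were called in each alternative that kept the low genes and the block, and 10 (Atf3, Bhlhe40, Btg2, Calcrl, Dusp1, Egr1, Fosl2, Gm42743, Ier2 and Txnip) were called in all 14 alternatives. None of the 39 called lower was. With no replicate block, 16 genes were called (16 higher, 0 lower) and 61 passed an adjusted p of 0.05 against 1058 with it, and calls were 11 against 3 HPI, 37 against 16 HPI and 46 against 24 HPI, where the blocked fit gave 26, 129 and 120. The DESeq2 Wald test gave 47 calls, 15 lower, and 17 against 3 HPI. Only genes over 1 CPM in all 18 libraries gave 26 calls (22 higher, 4 lower) by testing fewer genes, and 17, 35 and 44 against 3, 16 and 24 HPI. The 2 compared groups alone gave 49 calls, 17 lower, with 570 past adjusted p.
Leaving out 1 library gave 40 to 73 calls, 31 to 35 of them higher and 5 to 40 lower, and 447 to 811 genes past adjusted p. Without replicate 1 of 8 HPI 535 passed, without replicate 3 of 8 HPI 447, and without control replicates 1, 2 and 3 693, 621 and 474. With replicate 3 of both groups left out, chosen after seeing the data, 38 genes were called (4 lower) and 306 passed. The cause was not tested. Among the 95 genes followed singly, Nfya (-0.05, adjusted p = 0.892 by edgeR) reversed, to 0.062 without replicate 3 of 8 HPI, 0.067 without replicate 2 of control and 0.048 with both replicate 3 libraries left out (-0.201 to 0.067 over the single libraries). The host Frmd4a (0.1, adjusted p = 0.604) reversed to -0.035 and -0.012 without replicate 3 of 8 HPI and of control and to -0.11 without both (-0.035 to 0.19). Depth limits the genes under 5 CPM, 22 of those called higher and 36 of those called lower.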
